A study of Arabidopsis thaliana with 26 samples.

Results

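Leaves of an Arabidopsis thaliana line with a knockout of PIF5, written pif5 here, were compared after 6 and after 3 days of darkening of the single leaf. The comparison used 6 of the 26 single-colour arrays of the study, which were the 3 arrays titled for 6 days and the 3 titled for 3 days in this genotype, and all 26676 rows of the deposited log2 table. The question was whether rows that still moved between these days went back towards their level in light or elsewhere. The other pif5 groups served as the frame, with 3 arrays of leaves in light, called day 0, 3 arrays after 1 day of darkening and 2 arrays after 12 days. The accession Col-0, the wild type, gave 3 arrays each in light and after 1, 3 and 6 days. All plants grew in short days, and on each plant a pair of fully expanded leaves was wrapped in foil-coated mittens while the remaining rosette kept its light and dark cycle. Leaf blades were collected at noon, and the mutant line is named pif5-621. The labels do not say whether a sample held 1 plant or several, so the p-values cover the spread among these arrays and part of it may be technical.

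PIF5 is a transcription factor of the basic helix-loop-helix type that phytochrome, when activated by red light, marks for degradation. In the dark it accumulates, and it is known as a promoter of dark-induced leaf senescence, the ordered dismantling of chloroplasts and recycling of nutrients that precedes leaf death. A leaf darkened alone on a lit plant senesces quickly in the wild type. Loss of PIF5 is known to delay yellowing in the dark.

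Rows are cited by their identifier in the table. The platform annotation was set against the values first. The 8 rows listed with 1 gene and named for nuclear photosynthesis proteins, which are abundant in leaves, had a median level in light at percentile 62 of all rows, below the 75 asked for, and the single row named for a cytosolic ribosomal protein lay at percentile 7.03. Names were therefore not used, and gene functions, cell type markers and the genotype itself could not be checked through them. Correlations between replicate arrays lay between 0.9806 and 0.9852 on day 3 and between 0.9855 and 0.9881 on day 6, and between an array of day 3 and one of day 6 they lay between 0.9720 and 0.9782. Precision is limited by the number of arrays. In whole leaf blades fewer cells of a type and less RNA per cell cannot be told apart.

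Between days 3 and 6 of darkness 1661 rows changed in pif5 leaves, which is 6.23% of all rows tested, by limma with Benjamini-Hochberg adjustment over all rows and a threshold of 0.05. Of these, 839 (3.15% of all rows) were higher on day 6 and 822 (3.08%) were lower. They are called late rises and late falls below. The changes were mostly small. The median late rise was 0.62 on the log2 scale, with a range of 0.341 to 2.28, and the median late fall was 0.575 in size, with a range of 0.338 to 2.61. A change of at least 2-fold, 1 on the log2 scale, was seen in 75 late rises and 71 late falls, together 0.547% of all rows. In 1594 of the 1661 rows the 3 arrays of day 6 lay entirely above or entirely below the 3 arrays of day 3, and over all rows 23.5% were separated in this way. The count of 1661 was 760 without day 6 replicate 1 and 872 without day 3 replicate 2. Rises were then 442 and 494 and falls 318 and 378, and falls were 534 without day 6 replicate 3. How rises and falls divided varied with the scaling. With quantile normalization it was 1048 to 715 and with arrays centred on their medians 1128 to 558.

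The rows that moved were brighter than most. With all rows split into 4 equal groups by mean level, 0.375% were called in the dimmest group, 3% and 9.07% in the next ones and 12.5% in the brightest. The median level of the late rises went from 5.63 on day 3 to 6.33 on day 6, and that of the late falls from 6.13 to 5.43, while the median over all rows was 4.29 and 4.22. Rows listed with 1 gene in the annotation made up 60.1% of the called rows and 60.7% of all rows.

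Of the 1661 late changes, 944 ran against the change that the same row had made on the first day of darkness. The first day was measured as day 1 against light in pif5, on 6 arrays that are not among the day 3 and day 6 arrays, although all groups share the fit's estimate of the spread. On that first day 4446 rows (16.7% of all) had risen and 4902 (18.4%) had fallen. Of the 839 late rises, 468 had fallen on the first day, which is 55.8%. Of them, 37 (4.41%) had risen then, and 334 had not passed the test. Of the 822 late falls, 476 (57.9%) had risen on the first day, 127 (15.5%) had fallen and 219 had not passed. Seen from the first day, 9.55% of all early falls were late rises and 10.7% of all early rises were late falls.

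The rows called were brighter than most, so the first-day calls were also counted without the dimmest rows. The rows kept, called brighter rows below, reached the array median in at least 3 arrays of any group. A row could be kept through a single group, so these rows were not matched in level to the rows called. Among the 15852 rows at or above the array median in at least 3 arrays, 25.7% had risen and 28.9% had fallen on the first day, and a fit over these rows alone gave shares of 58% of late rises with an early fall and 59.9% of late falls with an early rise, where 30.1% and 27.3% of its rows had such first-day calls. The counts of 468 and 476 fell to 259 and 189 without day 6 replicate 1 and to 276 and 217 without day 3 replicate 2, and the falls to 280 without day 3 replicate 3 and 296 without day 6 replicate 3. The shares moved less than the counts. Without day 6 replicate 1 they were 58.6% and 59.4%, and without day 3 replicate 2 they were 55.9% and 57.4%. Without day 3 replicate 3 the share of falls was 49.7%, and 21.7% of the late falls then had an early fall. With quantile normalization they were 48.3% and 62.7%. Taking the first day from Col-0 in place of pif5 gave 529 late rises with an early fall (63.1%) and 505 late falls with an early rise (61.4%). On that day 18.8% of all rows had fallen and 19.4% had risen in Col-0. Among the 15852 brighter rows the shares were 29.2% and 29.3%.

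**Figure D1:**
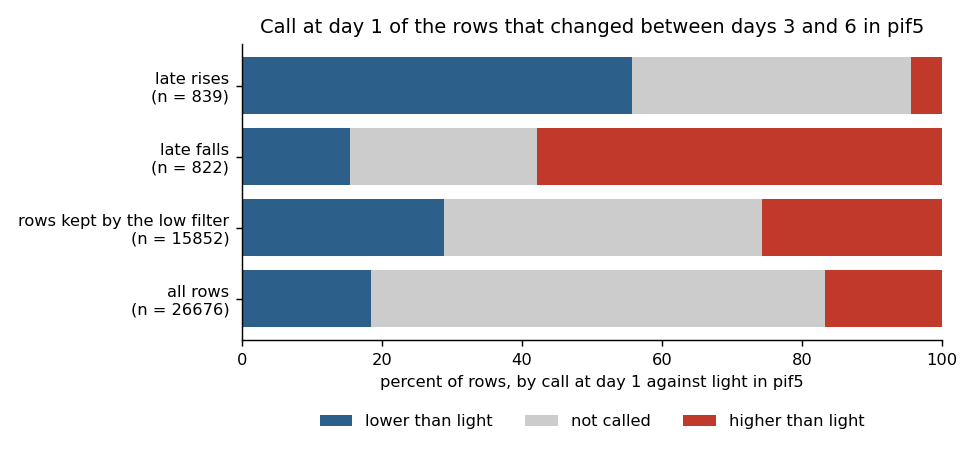
Each bar splits a set of rows by its limma call on day 1 against light in pif5, in percent of the rows of that set. Of the late rises 55.8% had fallen on the first day and of the late falls 57.9% had risen, against 18.4% and 16.7% of all rows.

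Across all 26676 rows the late change and the first-day change, which share no array, had a Pearson correlation of -0.30 and a Spearman correlation of -0.26. Among the 1661 called rows they were -0.52 and -0.53. Rows are not independent replicates, and these values describe the pattern only. Of the squared length of the late change over all rows, 8.25% lay along the direction of the first-day change, and over the 2787 rows that changed at least 2-fold on the first day it was 18%. Most of the late movement, noise included, was therefore in other directions.

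**Figure D2:**
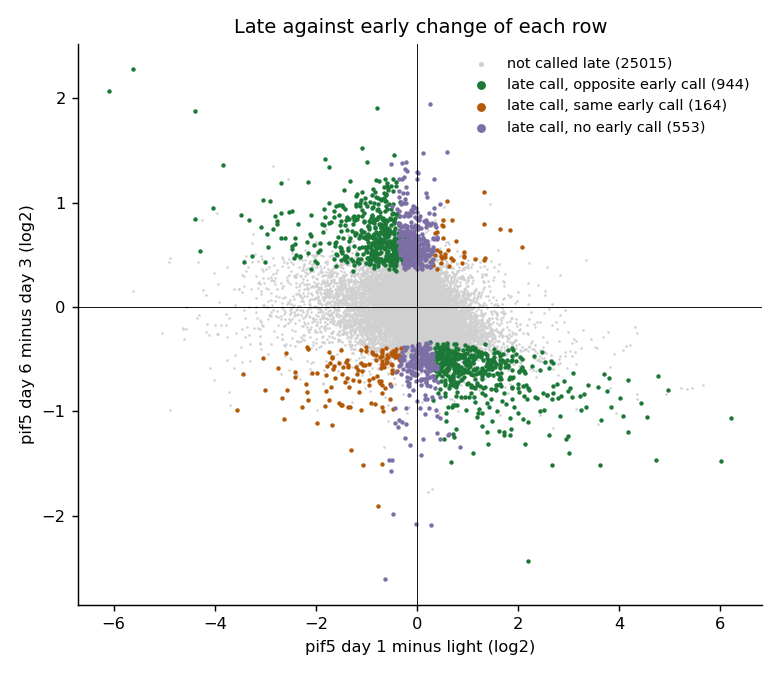
Each point is a row, with the change from light to day 1 in pif5 on the horizontal axis and the change from day 3 to day 6 on the vertical axis, both in log2 units. The 944 late calls with an opposite first-day call fill the upper left and lower right, the 164 with the same call are the sparse points of the other corners, and 553 had no first-day call.

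The position of every array between light and day 1 gave the same question a single value per array. The position is the slope of an array's deviation from the pif5 light mean on the light to day 1 change, over the 2787 rows that changed at least 2-fold on the first day. A position of 0 is the light mean and 1 the day 1 mean. The day 3 arrays stood at 0.921, 0.974 and 1.009 and the day 6 arrays at 0.860, 0.891 and 0.865. Along this direction each day 6 array was thus nearer to light than each day 3 array. The means were 0.968 ± 0.044 and 0.872 ± 0.016 (SD, n = 3 each), a difference of -0.096. The exact two-sided permutation p was 0.1, the smallest that 3 against 3 arrays allow, so this design cannot reach 0.05. On day 12 the arrays stood at 0.886 and 0.773. After 6 days, 0.872 of the first-day displacement was thus still present along this direction.

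The step towards light was larger over the rows that had risen strongly on the first day than over those that had fallen strongly. This difference itself was not tested. Over the 1047 rows that had risen at least 2-fold, the position went from 0.900 ± 0.042 on day 3 to 0.697 ± 0.048 on day 6 (SD, n = 3 each) and stood at 0.675 and 0.498 in the day 12 arrays. The arrays of days 3 and 6 did not overlap, with an exact two-sided permutation p of 0.1. Over the 1740 rows that had fallen at least 2-fold, it was 1.007 ± 0.048 on day 3 and 0.970 ± 0.006 on day 6 (SD, n = 3 each). These groups overlapped, with an exact two-sided permutation p of 0.4. In the deposited scaling the calls row by row showed the same difference. Of the 1047 strong early rises, 253 (24.2%) were late falls and 8 were late rises. Of the 1740 strong early falls, 155 (8.91%) were late rises and 66 (3.79%) were late falls, where all rows gave 3.15% and 3.08%. The median late change was -0.33 in the former set and 0.05 in the latter, on the log2 scale. The positions and calls of these sets were not recomputed under the other scalings. There the balance of all late calls with an opposite first-day call shifted towards rises. Median centring gave 591 such rises and 343 such falls, and quantile normalization 506 and 448.

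In Col-0 no step back was seen on the axis of all strong first-day changes. There Col-0 stood at 0.995 ± 0.014 on day 1, 1.101 ± 0.026 on day 3 and 1.107 ± 0.014 on day 6 (SD, n = 3 each). Over the early rises alone Col-0 went from 1.033 ± 0.043 on day 3 to 0.961 ± 0.012 on day 6, and over the early falls alone from 1.140 ± 0.017 to 1.189 ± 0.022 (SD, n = 3 each). The Col-0 arrays of days 3 and 6 did not overlap in either set. A step towards light over the early rises was thus seen in Col-0 too, and a step away over the early falls. The median late change in Col-0 was -0.13 over the strong early rises and -0.10 over the strong early falls. These Col-0 steps were not tested.

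**Figure D3:**
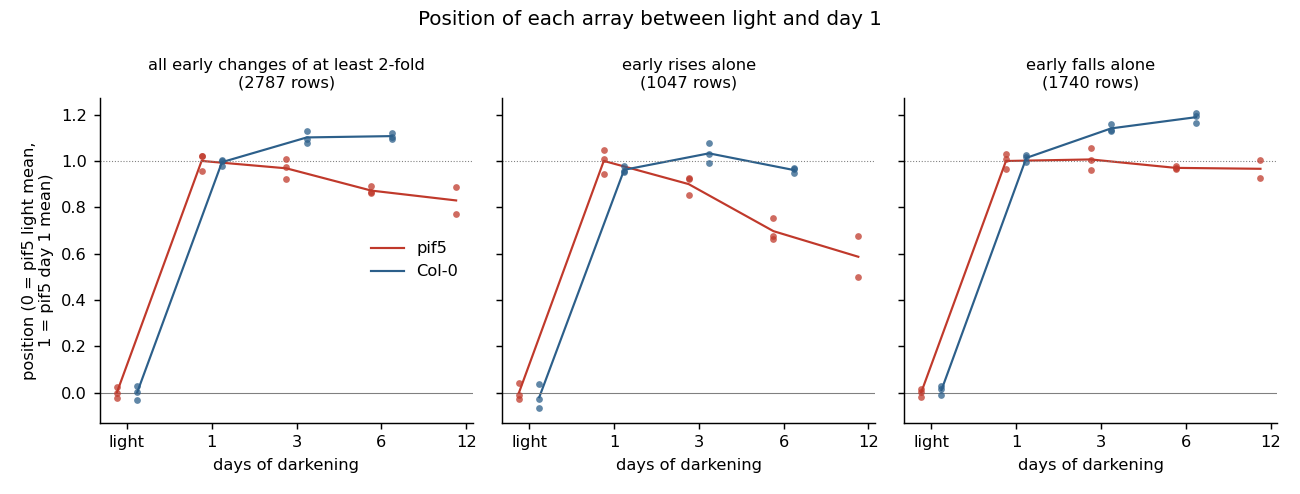
Position of each of the 26 arrays between the pif5 light mean (0) and the pif5 day 1 mean (1), for all rows that changed at least 2-fold on the first day, for the rises and for the falls. Points are arrays, lines join group means and days are equally spaced. In the middle panel pif5 goes from 0.900 on day 3 to 0.697 on day 6, while on the right it stays at 1.007 and 0.970.

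The late changes with an opposite first-day call went to different extents in each direction. They were chosen by that call alone, whatever their level on day 3. Some stood at about their light level or past it on day 3 and ended farther from it. Rows 13453102, 13496775 and 13492528, described below, did so, and how many others did was not counted. For the 468 late rises with an early fall, the median change from the pif5 light mean was -0.845, -0.774 and -0.805 in the 3 arrays of day 1, on the log2 scale. In the day 3 arrays it was -0.472, -0.621 and -0.651, and in the day 6 arrays 0.164, 0.041 and 0.110. On day 12 it was 0.106 and 0.136, so as a set these rows reached their level in light by day 6 and were there on day 12. For the 476 late falls with an early rise, the corresponding medians were 1.148, 1.062 and 1.009 on day 1 and 0.847, 0.997 and 0.995 on day 3. On day 6 they were 0.296, 0.386 and 0.357 and on day 12 they were 0.281 and 0.162. This set had thus come most of the way down by day 6 and was still above light in every array. These medians use the same day 3 and day 6 arrays that chose the rows, which enlarges the step between those days.

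A median at the light level does not mean that each row stopped there. On day 12 against light, 153 of the 468 rows were higher, 130 were lower and 185 did not pass. Of the 476 rows, 181 were still higher, 56 were lower and 239 did not pass. Over all rows 13.7% were higher and 19.2% lower on day 12 than in light, and among the 15852 brighter rows 22% and 29.5%. The light arrays that enter this comparison also enter the first-day calls that chose the rows.

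The remaining late changes had no opposite first-day call. The 334 late rises without a first-day call had a median change from light of 0.13 on day 3, 0.77 on day 6 and 0.76 on day 12. The 219 late falls without a first-day call had medians of 0.08, -0.48 and -0.44. On day 12, 253 of the 334 rows were higher than in light and 81 did not pass. Of the 219 rows, 114 were lower, 3 were higher and 102 did not pass. The medians do not describe each row, and some rows described below were already away from light on day 3. The 37 late rises with an early rise continued from 0.95 to 1.57 and 1.67, and the 127 late falls with an early fall from -1.27 to -1.91 and -1.97. Onward falls made up 15.5% of the late falls, where 18.4% of all rows had fallen on the first day, and onward rises 4.41% of the late rises, where 16.7% had risen. Among the 15852 brighter rows 28.9% had fallen and 25.7% had risen on the first day. The onward sets depended on the scaling. Quantile normalization gave 94 onward falls (13.1%) and 76 onward rises (7.25%), and centring on array medians gave 86 (15.4%) and 63 (5.59%).

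**Figure D4:**
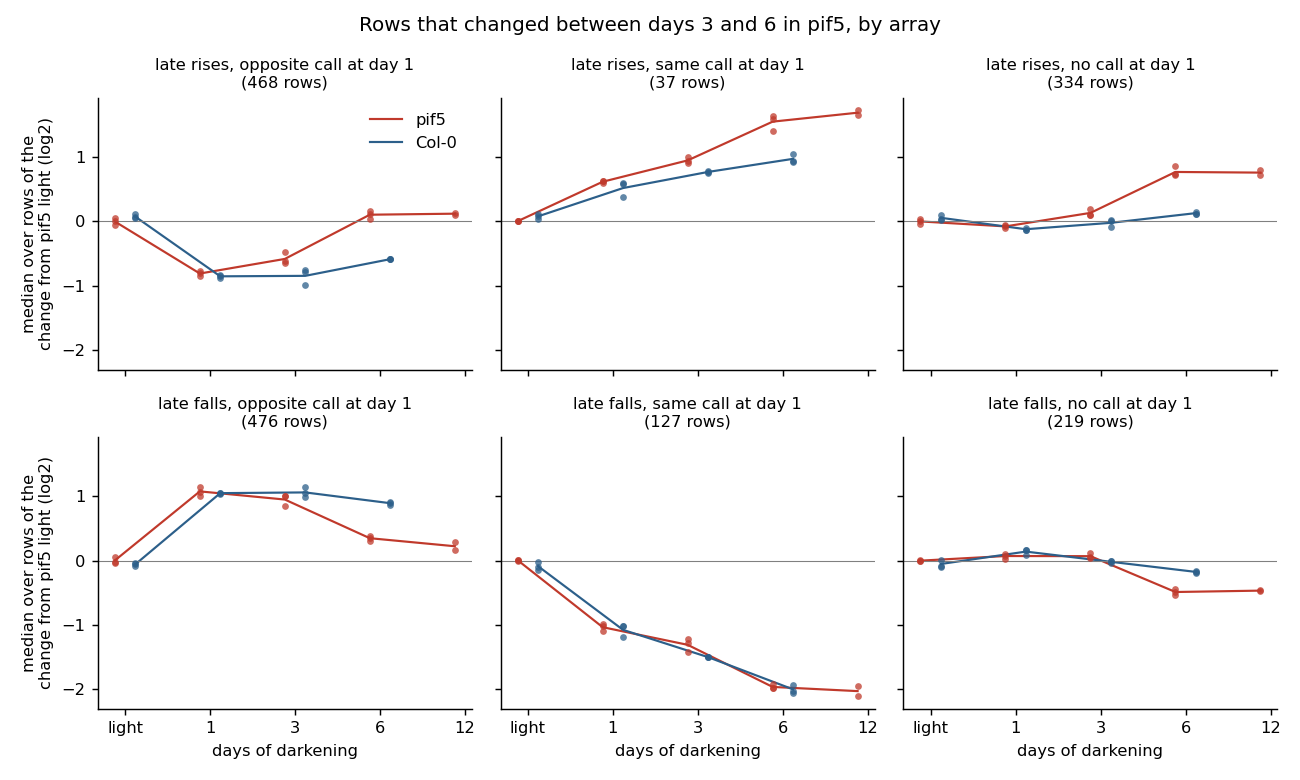
Median over the rows of each set of the change from the pif5 light mean (log2) in every array, with pif5 in red and Col-0 in blue, lines through the group means and days equally spaced. In the upper left set pif5 returns to about 0 on day 6 while the Col-0 arrays of thon day lie between -0.587 and -0.583.

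Most of these rows differed on day 12 from day 1 in the direction of the late change. Day 12 was compared with day 1, again on arrays other than those of days 3 and 6, with the spread estimated over all groups. Of the 839 late rises, 673 (80.2%) were higher on day 12 than on day 1 and 2 were lower, where 8.73% of all rows were higher. Of the 822 late falls, 602 (73.2%) were lower and 2 were higher, where 13.2% of all rows were lower. Among the 15852 brighter rows 14.1% were higher and 20.5% lower. Against light, 443 late rises (52.8%) were higher on day 12 and 130 (15.5%) were lower. Of the late falls, 296 (36%) were lower than light and 184 (22.4%) were higher. Over all rows 13.7% were higher and 19.2% lower, and among the 15852 brighter rows 22% and 29.5%. The shares of late falls were thus near those of brighter rows, which were not matched to them in level. Day 12 rests on 2 arrays. The 5855 rows that differed between days 12 and 1 became 3817 without day 12 replicate 2.

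Of these rows, which were chosen in pif5, a minority passed over the same interval in Col-0. There, 1505 rows (5.64%) were higher and 1293 (4.85%) lower on day 6 than on day 3. Among the 15852 brighter rows these shares were 8.32% and 7.31%. Of the pif5 late rises, 195 (23.2%) were also higher in Col-0 and 17 (2.03%) were lower. Of the pif5 late falls, 235 (28.6%) were lower in Col-0 and 28 (3.41%) were higher. These shared rows were 13% of the Col-0 late rises and 18.2% of the Col-0 late falls. The median late change in Col-0 was 0.20 over the pif5 late rises and -0.25 over the pif5 late falls, against 0.62 and -0.58 in pif5 itself, where the rows were chosen. The Col-0 total of 2798 became 1839 without Col-0 day 3 replicate 2. The genotypes' late changes differed at 1282 rows (4.81%) by the limma interaction term, with a more positive change in pif5 at 425 and a more negative one at 857.

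The 468 rows that turned upward in pif5 were chosen there, which favours a gap to Col-0. In Col-0, 118 of them (25.2%) were late rises too, where 5.64% of all rows were. Their median change from the pif5 light mean was -0.756, -0.991 and -0.785 in the Col-0 arrays of day 3 and -0.585, -0.583 and -0.587 in those of day 6. The 476 rows that turned downward in pif5 stood at 1.045, 1.145 and 0.981 in Col-0 on day 3 and at 0.902, 0.899 and 0.868 on day 6. Of these, 132 (27.7%) were late falls in Col-0 too, where 4.85% of all rows were. The interaction passed at 105 of the former (22.4%) and 92 of the latter (19.3%), where it passed at 4.81% of all rows, and it did not pass at 363 and 384. Over the 127 onward falls pif5 stood at -1.287, -1.219 and -1.42 on day 3 and at -1.982, -1.982 and -1.923 on day 6, and Col-0 at -1.494, -1.504 and -1.501 on day 3 and at -2.055, -2.019 and -1.926 on day 6.

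Single rows are described by set, as the 4 with the largest late change in each set among the 1594 called rows with separated arrays. All values are log2 levels on the arrays, and levels of different rows are not compared. The largest late rise was that of row 13420570, which had lost most of its signal on the first day, from 11.74 ± 0.15 in light to 6.12 ± 0.90 (SD, n = 3 each). Its day 3 arrays read 9.11, 8.10 and 6.46 and its day 6 arrays 10.16, 10.25 and 10.09. The day 3 arrays were spread widely and the day 6 arrays lay close together, above all of them. The late change was 2.28 ± 0.44 (SE; limma adjusted p = 0.0016), and on day 12 the arrays read 10.44 and 10.79, so this row came back most of the way. In Col-0 it stood at 6.06 on day 3 and 6.93 on day 6, and the difference in late change between genotypes of 1.40 did not pass (limma adjusted p = 0.26).

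Rows 13452610 and 13468599 had lost most of their signal on the first day and regained part of it. Row 13452610 fell from 10.30 in light to 4.22 on day 1, and read 4.91, 4.50 and 4.3 on day 3 and 7.44, 6.91 and 5.57 on day 6. Its late change was 2.07 ± 0.33 (SE; limma adjusted p = 0.00025). On day 12 it read 4.21 and 4.13, a change from day 6 of -2.47 (limma adjusted p = 0.0023). Row 13468599 went from 9.78 in light to 5.39 on day 1, read 5.67, 4.83 and 5.54 on day 3 and 8.27, 7.18 and 6.23 on day 6, and stood at 6.12 and 5.62 on day 12. Its late change was 1.88 ± 0.36 (SE; limma adjusted p = 0.0016), and the change from day 6 to day 12 of -1.36 did not pass (limma adjusted p = 0.22). In both rows day 6 replicate 1 was the highest and replicate 3 the lowest. Row 13453102 took another course. It dipped from 5.19 in light to 4.40 on day 1, was back at 5.48, 4.94 and 5.14 on day 3 and then read 7.18, 6.85 and 7.25 on day 6 and 7.12 and 6.99 on day 12. Its late change of 1.91 ± 0.14 (SE; limma adjusted p = 6.1e-09) carried it past its level in light.

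Among late rises without a first-day call, row 13340577 was flat until day 3 and then stepped up. It read 3.83, 4.09 and 3.84 on day 3 and 6.22, 5.63 and 5.75 on day 6, a change of 1.95 ± 0.20 (SE; limma adjusted p = 1.1e-06), and stayed at 5.50 and 6.05 on day 12. Row 13457917 had the same form, with 4.28, 3.76 and 3.99 on day 3, 5.49, 5.28 and 5.42 on day 6 and 5.23 and 5.02 on day 12. In Col-0 their means on day 6 were 4.16 and 3.92, near those of light. Row 13533743 read 4.55, 4.13 and 4.15 on day 3 and 6.81, 5.62 and 4.82 on day 6, and was at 4.01 and 3.49 on day 12, a change from day 6 of -2.0 (limma adjusted p = 0.0058). Row 13352198 climbed until day 6, from 4.81 in light to 6.38, 6.46 and 6.22 on day 3 and 7.99, 8.16 and 7.36 on day 6. On day 12 it read 7.07 and 6.70, and the change from day 6 of -0.95 did not pass (limma adjusted p = 0.38). In Col-0 it had already reached 8.48 on day 3, and the difference in late change between genotypes did not pass (limma adjusted p = 0.19).

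Onward rises were few and mostly moderate. Row 13428993 went from 3.78 in light to 5.63, 5.38 and 4.95 on day 3 and 6.66, 6.00 and 6.60 on day 6, and 7.59 and 7.22 on day 12. Its late change of 1.1 ± 0.26 (SE) had a limma adjusted p of 0.0084 and did not pass without day 3 replicate 3 or without day 6 replicate 1. Row 13518453 rose evenly, from 7.28 in light through 8.66, 8.57 and 8.93 on day 3 to 9.61, 9.42 and 9.62 on day 6. Row 13347035 read 4.36, 4.12 and 4.27 on day 3 and 5.51, 4.96 and 5.32 on day 6. Row 13408319 read 6.87, 6.35 and 6.90 on day 3 and 7.66, 7.37 and 7.57 on day 6. Its late change of 0.83 did not pass without day 3 replicate 2, day 6 replicate 1 or day 6 replicate 3. In these 4 rows the day 12 level was higher than light, by 3.62, 2.36, 1.67 and 2.25 in the order given.

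Late falls with an early rise include transient peaks of the first day. Row 13496775 stood at 5.71 in light and 7.90 on day 1, read 6.60, 6.11 and 5.09 on day 3 and 3.44, 3.37 and 3.69 on day 6, and stayed at 3.39 and 3.61. Its late change was -2.43 ± 0.32 (SE; limma adjusted p = 2.1e-05), and it ended below its level in light. In Col-0 the peak on day 1 was at 9.56 and the row stood at 3.93 already on day 3. Row 13478486 peaked at 8.75 on day 1, read 6.31, 6.23 and 6.28 on day 3 and 4.46, 5.0 and 4.81 on day 6, close to 5.13 in light. Col-0 kept it at 6.15 and 6.33 on these days. Row 13370136 read 6.72, 5.89 and 6.16 on day 1, 7.72, 6.03 and 6.31 on day 3 and 5.0, 4.77 and 5.74 on day 6, still above 3.59 in light. Row 13492528 read 5.62, 5.30 and 4.71 on day 3 and 3.92, 3.53 and 3.72 on day 6, below the 5.76 of light.

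The 4 largest onward falls had late changes of -0.60 to -2.21 in Col-0. The change in Col-0 did not pass in rows 13403445 (-0.60, limma adjusted p = 0.28) and 13506095 (-0.73, limma adjusted p = 0.062), and the difference between genotypes passed in none of them (limma adjusted p = 0.27 to 0.95). Row 13526409 fell from 11.54 in light to 9.07, 9.05 and 8.71 on day 3 and 7.54, 7.48 and 7.28 on day 6, a late change of -1.51 ± 0.17 (SE; limma adjusted p = 3.4e-06). The late change in Col-0 was -1.57. Row 13531271 read 8.13, 7.91 and 7.58 on day 3 and 5.55, 5.81 and 6.53 on day 6, with a late change of -1.91 in pif5 and -2.21 in Col-0. Row 13506095 went from 8.46, 8.20 and 7.54 to 6.49, 6.43 and 6.73. Row 13403445 went from 6.43, 6.52 and 5.18 to 4.85, 4.38 and 4.76, and its change did not pass without day 3 replicate 2.

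Late falls without a first-day call held the largest late change of all. Row 13429354 stood at 8.00 in light and 7.37 on day 1, read 7.10, 7.38 and 6.10 on day 3 and 4.24, 4.13 and 4.38 on day 6, a change of -2.61 ± 0.35 (SE; limma adjusted p = 3e-05). In Col-0 it stood at 5.11 on day 3 and 3.27 on day 6, and the difference in late change between genotypes did not pass (limma adjusted p = 0.5). Row 13501655 rose to 6.86, 6.40 and 7.02 on day 3 and then read 4.47, 4.74 and 4.82 on day 6 and 4.16 and 4.58 on day 12, below the 5.89 of light. Row 13471921 read 9.22, 8.78 and 8.20 on day 3 and 6.67, 6.59 and 6.96 on day 6. Row 13496837 went from 6.27, 6.08 and 5.05 to 3.64, 3.75 and 3.73.

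The genotypes moved in opposite directions at 4 of the 6 rows with the largest difference in late change among the 316 called rows with separated arrays where the interaction passed. The other two were rows 13452610 and 13468599, whose late change was positive in pif5 and did not pass in Col-0. Row 13361474 read 8.69, 8.09 and 7.94 on day 3 and 9.64, 9.20 and 9.56 on day 6 in pif5, and 9.89 and 10.32 on day 12. In Col-0 it read 5.40, 5.81 and 6.13 on day 3 and 4.41, 4.52 and 4.53 on day 6. The late changes were 1.23 and -1.29, and their difference was 2.52 (limma adjusted p = 6.4e-06). Row 13343205 fell in pif5 from 5.43, 5.36 and 5.10 to 3.90, 3.87 and 4.19, towards the 4.54 of light and past it. In Col-0 it rose from 3.48, 3.66 and 3.70 to 5.83, 5.23 and 5.34, a difference of -3.16 (limma adjusted p = 1.2e-08). Row 13410517 read 5.44, 5.69 and 5.82 and then 4.18, 4.59 and 4.40 in pif5, while Col-0 went from 5.21, 4.96 and 5.27 to 7.10, 6.90 and 6.80. Row 13516385 went from 5.94, 5.99 and 5.46 to 4.56, 4.73 and 4.53 in pif5, near the 4.36 of light, and from 4.51, 5.18 and 4.31 to 6.35, 6.22 and 6.48 in Col-0. No array of day 6 overlapped with day 3 in either genotype at these 4 rows. They were chosen for this difference, which enlarges it.

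**Figure D5:**
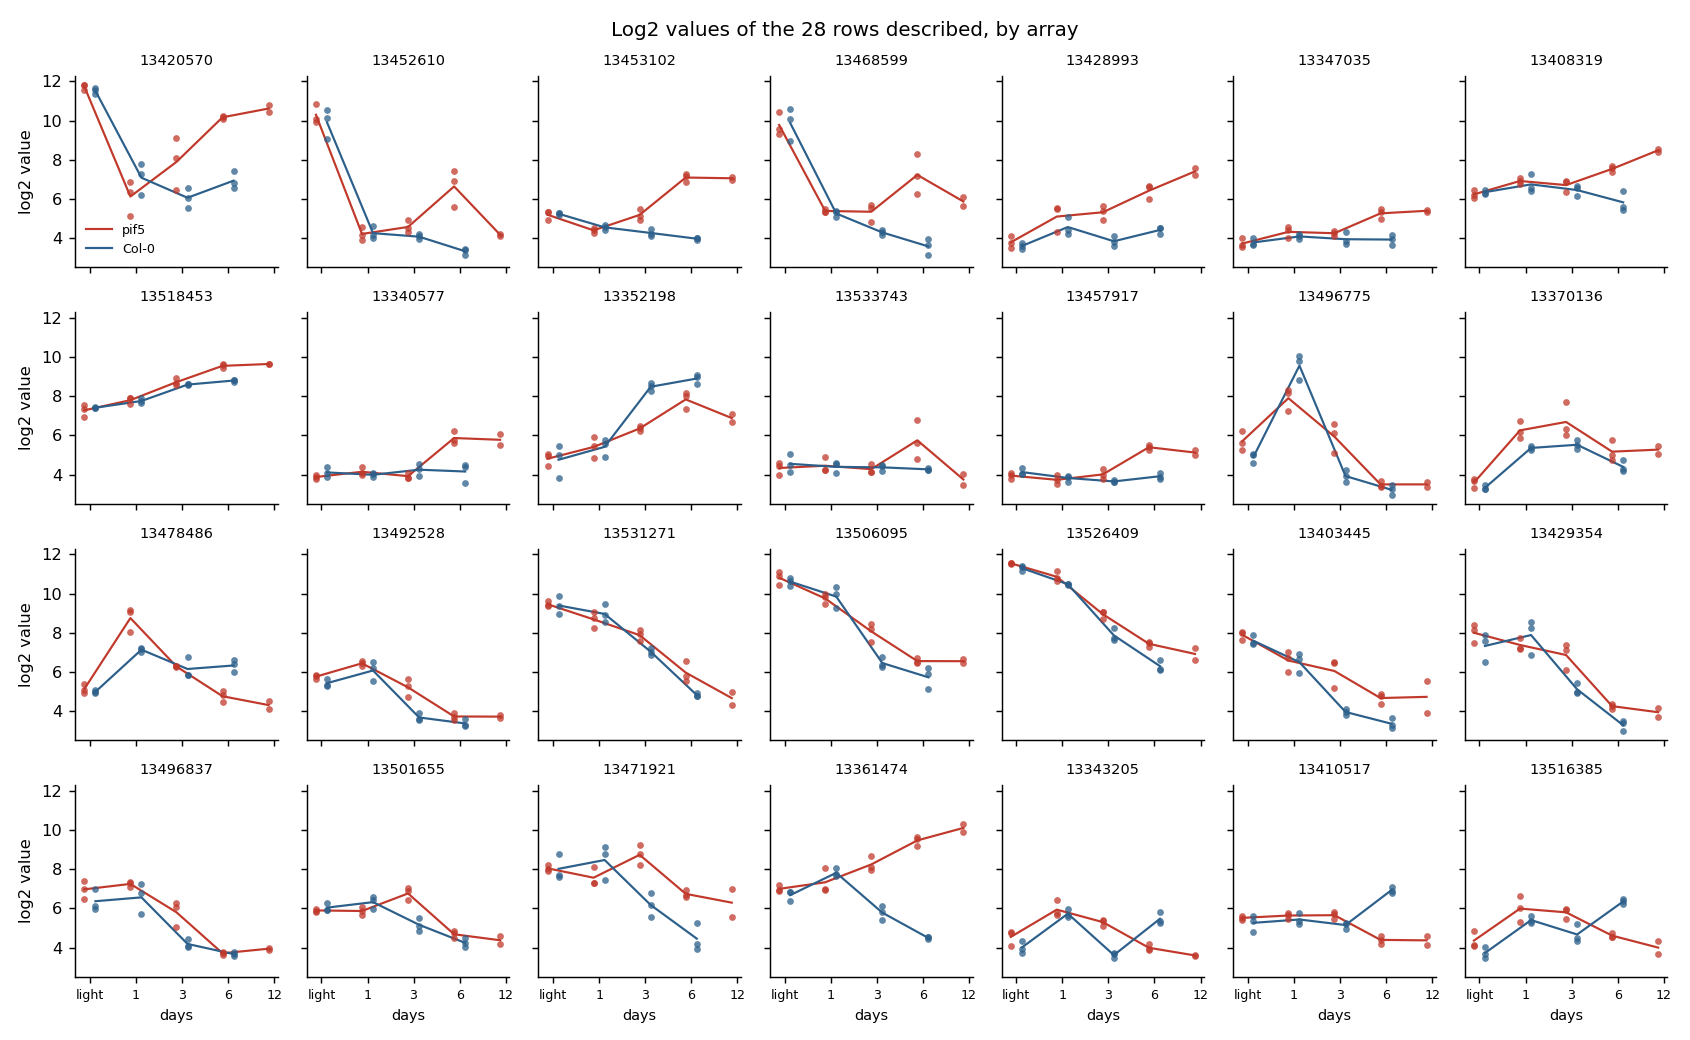
Log2 values of the 28 rows described, 1 panel per row, with a point for each array, lines through the group means and days equally spaced. Row 13420570 returns from 6.12 on day 1 to 10.17 on day 6 in pif5, and rows 13452610 and 13533743 are higher there on day 6 than on days 3 and 12. Row 13361474 is higher in pif5 than in Col-0 on days 3 and 6, and the genotypes overlap on day 1.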

How the data were processed

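The authors deposited log2 expression values for 26 arrays in 1 table, whose columns were matched to samples by accession. Per the submitters' processing notes, oligo was used (no version). Of its settings and of scan batches, nothing is given in the sources used here. Biotinylated cRNA was prepared, per the labels' protocols. The array type and the strand its probes read were not checked, so a level is that of the row's probes and of no named transcript.

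No further scaling was applied. All 9 groups entered 1 fit of limma 3.58.1 under R 4.3.3 (17 residual degrees of freedom, moderated by eBayes), with Benjamini-Hochberg adjustment over 26676 rows. Python 3.11.15 with numpy and scipy 1.17.1 gave counts and exact permutation tests. The limma step was run on simulated data with independent noise in each array and added changes of at least 2-fold. This checked the code only, as most late changes here were smaller.

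Rows named are the 4 with the largest late change in each of 6 sets (late rise or fall, by first-day call), among called rows with separated arrays, and the 3 most positive and 3 most negative genotype differences among those also called in the interaction. Platform names cover 16179 rows with 1 gene, 588 with several and 9909 with none, and were not used. Comparisons, rules and lists were chosen with earlier results of these data known. Alternatives were quantile normalization, centring on array medians, a fit of the compared groups alone, a filter on low rows, eBayes with trend and robust, a replicate block and leaving out each array.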

Additional observations from a re-analysis of the deposited data

Results flagged for a closer look

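The late change differed between pif5 and Col-0 at 1282 rows (4.81% of all) by the limma interaction term, and at 18 of the 28 rows described. The rows described were chosen for a large late change in pif5 or for this difference itself. That choice raises their share, so it is no further support for a difference.

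In late rises of pif5 the change in pif5 minus that in Col-0 was 2.81 in row 13452610, 2.59 in row 13468599, 2.2 in row 13453102 and 2.04 in row 13340577, on the log2 scale. It was 1.58 in row 13533743, 1.46 in row 13408319, 1.12 in row 13457917, 1.03 in row 13347035, 0.63 in row 13518453 and 2.52 in row 13361474. In late falls it was -1.73 in row 13496775, -1.69 in row 13478486, -1.18 in row 13492528, -1.58 in row 13496837 and -1.16 in row 13501655. In Col-0 rows 13496775, 13492528 and 13496837 had fallen by day 3, from 4.90, 5.42 and 6.36 in light to 3.93, 3.67 and 4.18. Their pif5 means on day 6 were 3.50, 3.72 and 3.71. Rows 13478486 and 13501655 stood at 6.15 and 5.16 in Col-0 on day 3, and at 4.76 and 4.68 in pif5 on day 6. The 3 chosen for a negative difference had -3.16 in row 13343205, -3.05 in row 13410517 and -2.87 in row 13516385. No cause was tested.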

How the results depend on the processing

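The count of 1661 late changes in pif5 lay between 1244 and 1898 under the scaling, fit, filter, spread and replicate block alternatives, and between 760 and 1711 with 1 day 3 or day 6 array left out. Late rises then lay between 442 and 859, late falls between 318 and 852, and late changes against the first-day call between 448 and 1015. Of those, rises lay between 259 and 496 and falls between 189 and 519. Deviations of same-numbered pif5 arrays of days 3 and 6 from their group means correlated at 0.092, 0.061 and -0.028, none over 0.1. For the light and day 1 arrays they correlated at 0.176, 0.109 and 0.063, so some exceeded 0.1. Replicate numbers were not taken as pairs in the main fit. The replicate block gave 1793 late changes and 9530 first-day changes in pif5, where the main fit gave 9348 of the latter. The fit over both groups alone gave 1244. The Col-0 late count lay between 1839 and 2371 with 1 array left out, the lowest without day 3 replicate 2. Day 12 against day 1 gave 3817 to 5219, the lowest without day 12 replicate 2. The interaction gave 957 to 1434 and day 12 against light 6674 to 8179. Day 6 was nearer to light than day 3 on the light to day 1 axis in all 12 alternatives, by -0.037 (early falls alone) to -0.203 (early rises alone). The 28 rows kept their direction in all 336 refits, and 25 passed in each. No late change smaller than 0.338 on the log2 scale passed with this number of arrays.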
